A study of Homo sapiens with 9 samples.

Results

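The clustered protocadherin locus on human chromosome 5 was described site by site from ChIP-nexus peaks for ZNF143, CTCF and RAD21. ChIP-nexus recovers DNA bound by a protein and trims it with an exonuclease to the protein's edge. The locus was taken as a stretch of 800 kb that holds the alpha, beta and gamma clusters on build hg19. All peaks of the 9 deposited lists in this interval were merged where they overlapped by at least 1 bp, and the choice used position only. This gave 333 of the 358587 deposited peaks, which formed 69 sites, numbered 1 to 69 from the lowest to the highest coordinate. The first began at position 140165646 and the last ended at 140947392. Of these sites 26 lay in the alpha cluster with the stretch downstream of it, 17 in the beta cluster and 26 in the gamma cluster, with borders at about 140428000 and 140640000.

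The cells were HEC-1-B, an established line from a human uterine adenocarcinoma, and lines derived from it. Unmodified wild-type cells had a list each for ZNF143, CTCF and RAD21. Cells labelled ZNF143KO, a knockout of ZNF143, had lists for CTCF and RAD21. Cells labelled CTCF-AID carry CTCF fused to an auxin-inducible degron, a tag through which auxin (IAA) triggers destruction of the protein where the plant receptor TiR1 is expressed. They had lists for ZNF143 and CTCF at 0 h and at 24 h of auxin, and both times share the tag. Each of the 9 groups held 1 library, so no difference reported here has a replicate check and no test between conditions was made. Whether each line was a single clone is not given in the sources used here, and ZNF143 in the knockout and CTCF protein after auxin were not analysed here, so both states were taken from the labels.

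The protocadherin clusters encode cell adhesion proteins that neurons use in varying combinations to tell their own branches from those of other cells. Most genes of the clusters begin at a promoter of their own in front of a variable first exon, and promoters are chosen by contact with distant enhancers. CTCF is a zinc finger protein that binds DNA and halts cohesin, the ring complex that extrudes chromatin loops and of which RAD21 is a subunit. In the alpha cluster, earlier work placed a CTCF site at the promoter of most variable exons and another within the exon that follows, and in an enhancer downstream of the cluster a pair of CTCF sites that face the promoters. ZNF143 is a zinc finger transcription factor found at promoters and at many CTCF sites.

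Promoter sequence is shown first because the shared element of these promoters is where CTCF is known to bind. The sequences come from RefSeq on build GRCh38.p14 and are not matched to the hg19 sites, so they describe the genes and not any peak. Windows of 300 bases, from 250 before to 50 after the gene start, were held for 47 of the 53 listed protocadherin genes, in 52 windows. The 9 capital letters mark the piece shared within a cluster, chosen after the windows were read, and each sequence is on the plus strand.
PCDHA1, chr5:140786083-140786119: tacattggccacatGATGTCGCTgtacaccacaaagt
PCDHA2, chr5:140794778-140794814: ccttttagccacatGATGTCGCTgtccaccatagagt
PCDHA4, chr5:140806976-140807012: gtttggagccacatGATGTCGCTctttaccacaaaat
PCDHB2, chr5:141094541-141094577: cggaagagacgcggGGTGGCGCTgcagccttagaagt
PCDHB3, chr5:141100390-141100426: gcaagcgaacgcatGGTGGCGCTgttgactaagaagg
PCDHB4, chr5:141121720-141121756: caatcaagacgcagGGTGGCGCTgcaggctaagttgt
PCDHGA1, chr5:141330401-141330437: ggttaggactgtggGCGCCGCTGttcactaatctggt
PCDHGA2, chr5:141338701-141338737: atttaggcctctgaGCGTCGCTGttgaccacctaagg
PCDHGA3, chr5:141343765-141343801: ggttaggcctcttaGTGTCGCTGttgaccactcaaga

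On either strand, GATGTCGCT was in the windows of 9 of 13 alpha genes and of none of the beta or gamma genes, against 0.105% of all 35116 promoter windows. GGTGGCGCT was in those of 13 of 14 beta genes, all except PCDHB1, and of none of the alpha or gamma genes, against 0.501% of all windows. The looser gamma form GNGNCGCTG was in 18 of 20 gamma genes and 10.2% of all windows, and it was also in 12 beta genes, where it overlaps GGTGGCGCT. The pieces lay close to the gene start, at a median of 53 bases before it in alpha genes, 66 in beta genes and 64 in gamma genes. The usual core motif of CTCF was in 0 of the 52 windows and, with 1 mismatch allowed, in the window of PCDHB9 alone, against 0.470% and 4.94% of all windows. The ZNF143 piece CTACANNTC was in the window of PCDHAC2 alone, against 3.66% of all windows. These matches are descriptions of letters, and a window without a match says nothing of whether the factor binds there.

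CTCF was the most widespread of the 3 factors across the locus. CTCF had a peak in at least 1 list at 62 of the 69 sites, RAD21 at 54 and ZNF143 at 37. Over all lists together, all 3 factors were found at 33 sites, CTCF and RAD21 without ZNF143 at 18, and CTCF alone at 11. A factor without a list in a line counts here as absent: knockout cells had no ZNF143 list and CTCF-AID cells no RAD21 list. In the wild-type lists the counts were 29, 11 and 10. Pooled over the lists, no site had CTCF and ZNF143 without RAD21, but in wild-type cells, the only ones with all 3 factors measured, site 3 had CTCF at 21 reads and ZNF143 at 6 without RAD21. Pooled in the same way, ZNF143 stood alone at sites 43, 44, 47 and 64, and RAD21 alone at sites 16, 42 and 61. In the wild-type lists ZNF143 stood alone at sites 44 and 64, and RAD21 at sites 16 and 61. Sites 23, 26 and 63 had peaks in all 9 lists.

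**Figure D1:**
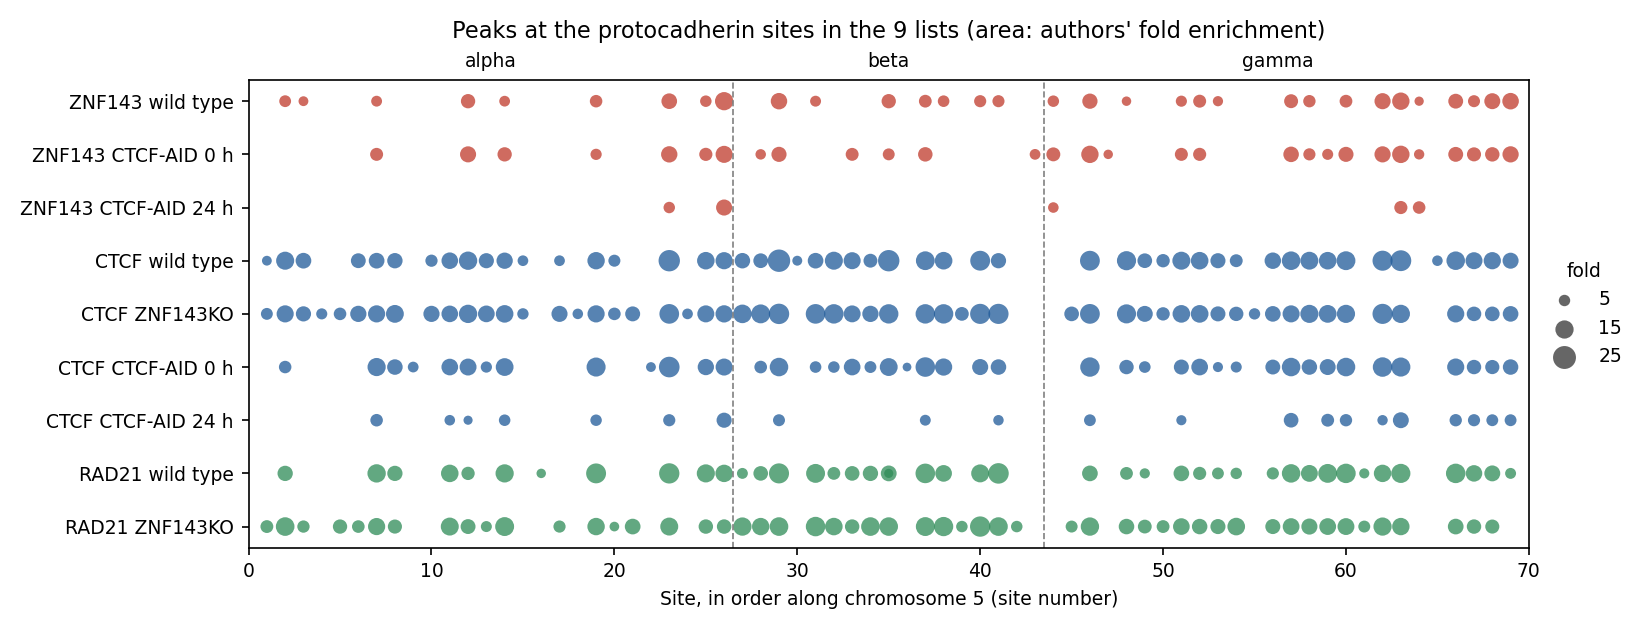
Peaks of the 9 lists (rows) at the 69 sites (horizontal axis, site number along chromosome 5), with point area showing the authors' fold enrichment and dashed lines at the cluster borders. ZNF143 after 24 h of auxin has 5 points, at sites 23, 26, 44, 63 and 64, and CTCF after 24 h has 21.

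Strength was read from the number of reads at a peak's summit, which was solved from the fold enrichment and −log10 p that the authors deposited. A summit count cannot exceed 2 times the shortest peak length of its list, so counts are bounded at values between 42 and 88. Background density, a measure of depth, ran from 3.88 reads per kb in the CTCF list at 24 h to 26.1 in the knockout RAD21 list. Counts of different lists are therefore given beside their depth, and all intervals on counts and shares below are exact 95% intervals that cover counting error only.

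In wild-type cells nearly every ZNF143 peak of the locus lay at a CTCF and cohesin site. Of the 32 ZNF143 peaks, 30 overlapped a CTCF peak, a share of 93.8% (79.2 to 99.2), against 73.1% of ZNF143 peaks on chromosomes 1 to 22 and X, the background used for every share below. With RAD21 29 overlapped, 90.6% (75 to 98.0) against 72.9%. The lower ends of these intervals, at 79.2% and 75%, lie above the background shares. In the other direction 30 of 51 CTCF peaks overlapped ZNF143, 58.8% (44.2 to 72.4) against 50.6%, an interval that holds the background share. The dependence on the overlap rule was large: with a reciprocal overlap of 50%, 46.9% of ZNF143 peaks matched CTCF and 28.1% matched RAD21. Genome shares under that rule are not given here, so the comparison with the background holds for the 1 bp rule only.

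The CTCF peaks that carried ZNF143 were mostly stronger than the others. Their wild-type summit counts ran from 17 to 46 with a median of 30, while the 21 without ZNF143 ran from 6 to 30 with a median of 15. The 2 ranges overlap. ZNF143 summits sat close to the CTCF summits, at a median distance of 9.5 bp over 30 sites in wild type and 7 bp over 25 sites in CTCF-AID cells at 0 h, against 10 bp over the genome in both. Sites 26 and 68 stood apart: the ZNF143 summit lay 111 and 113 bp below the CTCF summit in coordinate. In CTCF-AID cells at 0 h it lay 118 bp below at site 26 and 1 bp above at site 68, so the offset of site 68 was seen in 1 of the 2 lines.

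Cohesin was found less evenly. Of the wild-type CTCF peaks 40 of 51 overlapped RAD21, 78.4% (64.7 to 88.7) against a background of 76.4%. By cluster the count was 10 of 18 in alpha, 55.6% (30.8 to 78.5), 12 of 13 in beta, 92.3% (64.0 to 99.8), and 18 of 20 in gamma, 90.0% (68.3 to 98.8). The 3 intervals overlap, and the difference between clusters was not tested. CTCF alone was seen at 10 sites, 7 of them in alpha (1, 6, 10, 13, 15, 17 and 20). Their CTCF peaks were weak, and the 11 wild-type CTCF peaks without RAD21 had summit counts of 6 to 21 with a median of 12, against 11 to 46 and a median of 28.5 for the 40 with RAD21.

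In the wild-type list, close pairs of CTCF peaks were seen in alpha and not in beta or gamma. A second CTCF summit of the same list lay within 1 kb of 10 of the 18 wild-type alpha peaks, 55.6% (30.8 to 78.5), against a background of 8.26%. Members of a pair qualify through each other. The intervals on such shares, here and for the other lists, treat linked peaks as separate and are too narrow. The count was 0 of 13 in beta, an interval reaching up to 24.7%, and 0 of 20 in gamma, reaching up to 16.8%. The pairs were sites 2 and 3 at 618 bp, 7 and 8 at 629 bp, 11 and 12 at 644 bp, 14 and 15 at 669 bp, and 19 and 20 at 704 bp. Their spacing varied by less than 100 bp across the cluster.

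The counts of the members of a pair were compared within the wild-type list. The lower-coordinate and higher-coordinate members had wild-type CTCF summit counts of 28 and 21 at sites 2 and 3, of 20 and 19 at sites 7 and 8, and of 25 and 31 at sites 11 and 12. They had 20 and 8 at sites 14 and 15, and 26 and 12 at sites 19 and 20. The counting intervals overlap within every pair, and the pair of sites 7 and 8 differed by 1 read. RAD21 was at the lower-coordinate member of all 5 pairs in wild type, with summit counts of 16, 28, 25, 24 and 34. At the higher-coordinate member it was found at sites 8 and 12 only, with 19 and 14. In the knockout list, with its greater depth, 15 of 23 alpha CTCF peaks had such a neighbour, 65.2% (42.7 to 83.6) against 8.60%. The added pairs were sites 5 and 6 at 675 bp, 18 and 19 at 805 bp, and 25 and 26 at 982 bp. Sites 5 and 18 had no wild-type CTCF peak. Sites 25 and 26 both had one, and their wild-type summits were 1017 bp apart, just beyond the limit of 1 kb.

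The CTCF-AID lists held fewer of these pairs. At 0 h, 6 of 13 alpha peaks had a CTCF neighbour within 1 kb, 46.2% (19.2 to 74.9) against 10.3%, in the pairs of sites 7 and 8 at 643 bp, 11 and 12 at 640 bp, and 22 and 23 at 206 bp. Beta had 2 of 12, sites 36 and 37, which were 196 bp apart, and gamma had 0 of 18. The closest pairs, of 206 and 196 bp, each joined a strong peak to a weak one, with 13 reads at site 22 and 9 at site 36, that no other list called. At 24 h the pair of sites 11 and 12 alone remained within 1 kb, at 669 bp, which made 2 of 7 alpha peaks against a background of 7.47%.

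The pair of sites downstream of alpha, the stretch that the selection assigns to the alpha enhancer, had all 3 factors in wild type. Site 25, at positions 140419785 to 140420062, had wild-type summit counts of 11 for ZNF143, 31 for CTCF and 39 for RAD21. Site 26, at 140420806 to 140421071, had 29, 30 and 36. The ZNF143 peak of site 26 had the highest count of the 32 wild-type ZNF143 peaks. In the knockout the counts were 45 for CTCF and 44 for RAD21 at site 25, and 46 and 44 at site 26. The value of 44 is the ceiling of that RAD21 list.

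The RAD21 summit lay mostly on the higher-coordinate side of the CTCF summit. At the 39 sites with both factors called in both genotypes, RAD21 was on that side at 26 in wild type, 66.7% (49.8 to 80.9), and at 30 in the knockout, 76.9% (60.7 to 88.9). Over 39236 such sites of the genome the shares were 48.4% and 47.6%. The beta cluster was the most uniform, with 11 of 12 sites on the higher-coordinate side in both genotypes. The median distance without regard to side was 16 bp (7 to 21) in wild type and 19 bp (12 to 24) in the knockout, with overlapping intervals. Over the genome it was 15 and 13 bp. Site by site at the locus, the distance was longer in the knockout at 21, shorter at 15 and equal at 3, with a median change of 2 bp. Over the genome it was longer at 16996 and shorter at 20933.

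The side changed along the locus. At the 32 sites from 2 to 23 and from 27 to 60, RAD21 lay on the higher-coordinate side at 25 in wild type and at 30 in the knockout. At the 7 sites 25, 26 and from 62 to 68, it lay on the lower-coordinate side at 6 in wild type and at 6 in the knockout. These runs were chosen after the values were seen, so the counts are a description only. At site 25 RAD21 was 24 bp below CTCF in wild type and 49 bp below in the knockout, and at site 26 it was 38 and 16 bp below. At site 34, in beta, it was 61 bp above in wild type and 64 bp above in the knockout. Single sites can differ widely between libraries, as at site 59, where RAD21 was 21 bp below in wild type and 54 bp above in the knockout. The CTCF summit of that site itself differed by 43 bp between the lists.

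**Figure D2:**
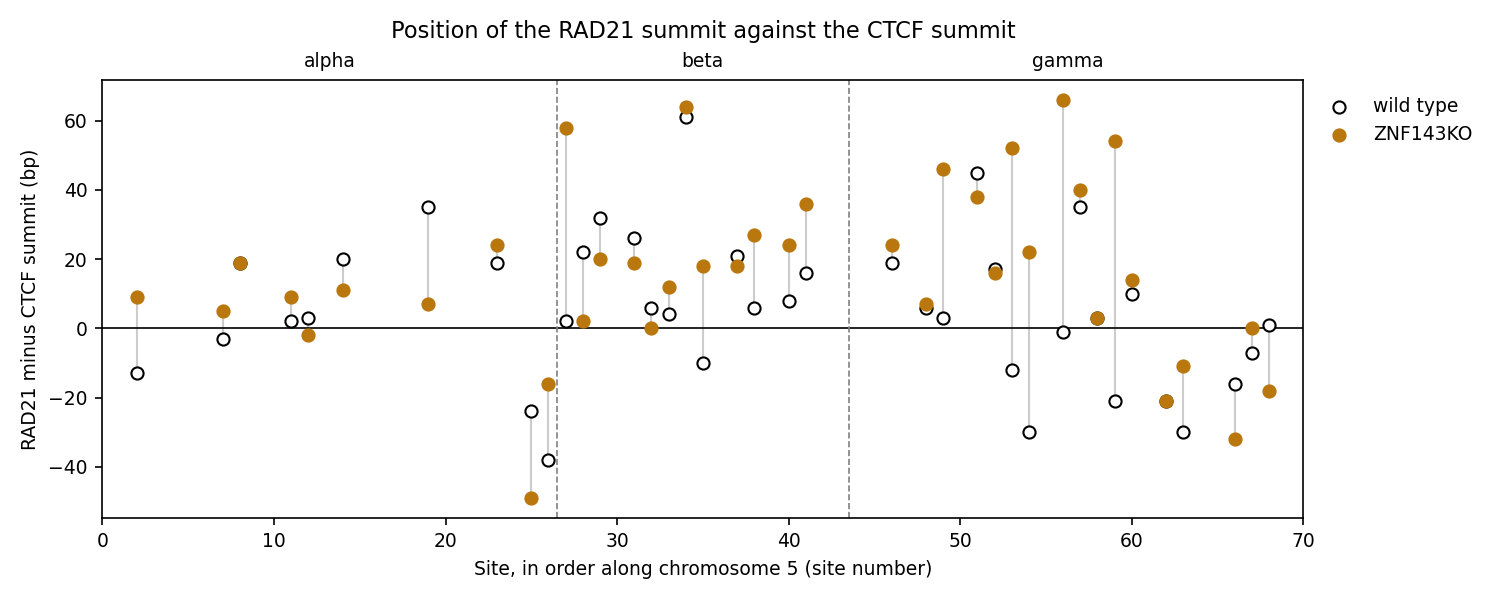
Position of the RAD21 summit minus that of the CTCF summit (bp, vertical axis) at the 39 sites with all 4 lists, by site number, in wild type (open) and ZNF143KO (filled), each point 1 library. Points of sites 25, 26 and 62 to 68 lie at or below 1 bp, and most others lie above 0.

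CTCF peaks were called at almost the same list of sites in ZNF143KO cells, whose CTCF library was deeper. Of the 51 wild-type CTCF peaks, 49 were found in the knockout, 96.1% (86.5 to 99.5) against a background of 94.0%. All 18 alpha peaks were among them. The 2 that were absent were weak, with 6 reads at site 30 (140514764 to 140514809) and 12 at site 65 (140936400 to 140936428). Of the 30 wild-type CTCF peaks with ZNF143, therefore, none was absent from the knockout list. These 30 were mostly the stronger CTCF peaks, and the genome share for peaks of this kind is not given here.

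**Figure D3:**
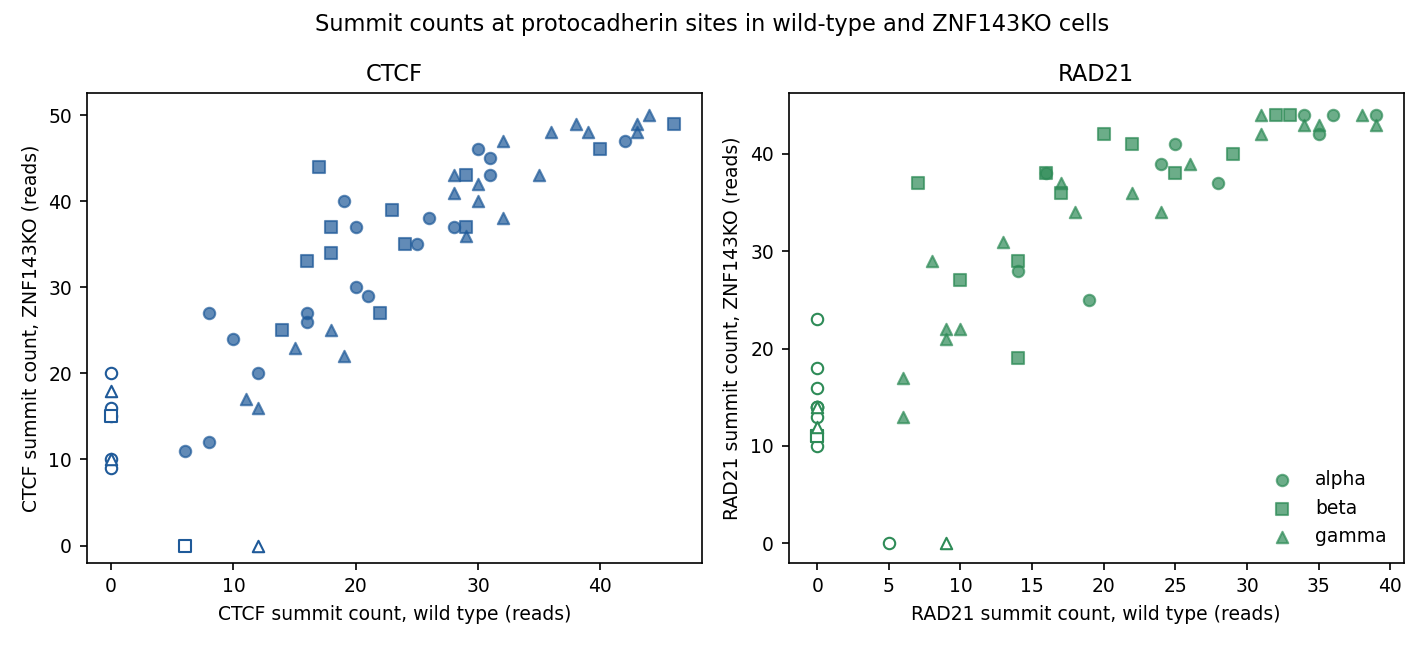
Summit counts (reads) in wild type (horizontal) and ZNF143KO (vertical) for CTCF (left) and RAD21 (right), 1 point per site, with shape giving the cluster and open points marking sites called in 1 list only, drawn at 0 in the other. Knockout counts bend towards the ceilings of 50 for CTCF and 44 for RAD21.

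Sites of the knockout list alone were few and weak. Among 57 CTCF peaks of the knockout, 8 had no wild-type match, 14% (6.26 to 25.8) against 21.6%, at sites 4, 5, 18, 21, 24, 39, 45 and 55. Their summit counts ran from 9 to 20, while the 49 shared peaks ran from 11 to 50. The knockout CTCF library was 2.19 times as deep in background reads per kb as the wild-type one, and the part of depth in these peaks was not tested. The order of the 49 shared sites by fold enrichment was similar in both lists, with a Spearman rho of 0.69. This is a description over sites that share their libraries. Wild-type counts were also scaled to the knockout depth by the background ratio, 2.03 per shortest peak length or 2.19 per kb. Knockout counts lay below both scaled values at 43 of the 49 sites, between them at 3 and above both at 3. Scaled values above the ceiling of 50 cannot be reached, and the part of the ceiling was not tested.

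RAD21 showed the same overall pattern with more additions in alpha. Of 43 wild-type RAD21 peaks 40 were found in the knockout, 93.0% (80.9 to 98.5) against 92.3%. Absent were site 16 with 5 reads, site 69 with 9, and the weaker of the 2 wild-type RAD21 peaks of site 35, also with 5. The knockout list starts at a −log10 q of 5, and the peaks of sites 16 and 35 had 4.71 and 3.64. With at least 5 in both lists, 40 of 41 were found, 97.6%, and the genome share under that cut is not given here. Site 69, at 140947173 to 140947392, kept a strong CTCF peak, with 32 reads in wild type and 47 in the knockout. It was the only site with a knockout CTCF peak and a wild-type RAD21 peak but no knockout RAD21 peak.

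Among 52 RAD21 peaks of the knockout, 12 had no wild-type match, 23.1% (12.5 to 36.8) against 20.9%. Of the 12, 8 lay in alpha, where they made up 8 of 18 RAD21 peaks, 44.4% (21.5 to 69.2). The counts were 2 of 14 in beta, 14.3% (1.78 to 42.8), and 2 of 20 in gamma, 10.0% (1.23 to 31.7). These intervals overlap, and the difference between clusters was not tested. At 7 of the 12, sites 1, 3, 6, 13, 17, 20 and 50, wild-type CTCF was present without RAD21. Sites 3 and 20, the higher-coordinate members of 2 alpha pairs, were among these. Over all 12, the knockout RAD21 counts ran from 10 to 23, against 13 to 44 for the 40 found in both. The RAD21 libraries differed strongly in depth, with 3.35 times the background reads per kb in the knockout. The part of this in the added RAD21 peaks was not tested. At the 40 sites found in both, wild-type counts were scaled by the background ratios of 3.51 per shortest peak length and 3.35 per kb. Knockout counts lay below both scaled values at 38 sites and above both at 2, under a ceiling of 44 whose part was not tested.

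CTCF and RAD21 coincided at 50 of the 57 knockout CTCF peaks, 87.7% (76.3 to 94.9) against 78.3%. The 7 without RAD21 were sites 4, 10, 15, 18, 24, 55 and 69, of which all except site 69 had a knockout CTCF count of 24 or less. At 7 sites the knockout RAD21 count stood at the ceiling of 44, where peaks can no longer be ranked.

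After 24 h of auxin most ZNF143 peaks of the locus were no longer called. Of the 29 ZNF143 peaks of CTCF-AID cells at 0 h, 5 were found at 24 h, 17.2% (5.85 to 35.8), against 43.2% of such peaks over the genome. The interval lies below this background share, which mixes peaks with and without CTCF at 0 h. Over the genome, 31.9% of those with CTCF and 57.6% of those without were found at 24 h. At the locus 25 of the 29 had CTCF, and the part of this mix was not tested. No ZNF143 peak of the locus was seen at 24 h alone, 0 of 5, which allows a share of up to 52.2%, against 8.10%. The beta cluster kept 0 of 6, alpha 2 of 7 and gamma 3 of 16.

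The 5 sites that kept ZNF143 fell into a group with CTCF and a group without. Sites 23, 26 and 63 had CTCF in all 4 CTCF lists, and sites 44 and 64 had CTCF and RAD21 in none. At site 26 the ZNF143 summit count was 36 reads (25.2 to 49.8) at 0 h and 25 (16.2 to 36.9) at 24 h. At site 23, at positions 140306077 to 140306333, it was 27 (17.8 to 39.3) and 11 (5.49 to 19.7), and at site 63, at 140904313 to 140904746, it was 33 (22.7 to 46.3) and 15 (8.40 to 24.7). In all 3 the 24 h count was the lower, and the intervals of the 2 times overlap. Site 44, at 140640664 to 140640733, had 19 and 9 reads. Site 64, at 140927238 to 140927324, was the only one of the 5 with the higher count at 24 h, with 9 reads (4.12 to 17.1) at 0 h and 13 (6.92 to 22.2) at 24 h.

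The depth of the ZNF143 libraries differed little, with 13.5 background reads per kb at 0 h and 12.1 at 24 h. When the 0 h counts were scaled by the ratio of the backgrounds, 23 of the 24 absent peaks still reached the count that a peak of the 24 h list needed, and 12 reached at least 2 times that count. The same reading without auxin, from wild type to 0 h, placed all 8 absent ZNF143 peaks at or above the needed count and 6 at 2 times or more, so this count does not set the auxin comparison apart. Several absent peaks were among the strongest of the 0 h list, such as site 46 with 33 reads, site 69 with 30, site 68 with 26 and site 62 with 25. Site 46 had the same 0 h ZNF143 count as site 63, which kept its peak. The 0 h counts ran from 9 to 36 with a median of 27 in the 5 kept and from 8 to 33 with a median of 17 in the 24 absent. The ranges overlap, and the kept sites with CTCF (23, 26 and 63) were among the 4 highest 0 h ZNF143 peaks of the locus by fold enrichment.

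Peaks with CTCF at 0 h were kept at 3 of 25 sites, 12% (2.55 to 31.2) against a background of 31.9%, and those without it at 2 of 4, 50% (6.76 to 93.2) against 57.6%. The first interval ends just under its background share, and the second is too wide to place. Among the 13 ZNF143 peaks with at least 20 reads at 0 h, all at CTCF sites, 3 were kept, 23.1% (5.04 to 53.8), against 74.0% of all such peaks over the genome and 60.7% of those at CTCF sites. This cut at 20 reads was chosen after the values were seen. The 13 had 21 to 36 reads, while counts of that list reach 62 over the genome. Strength above the cut was not matched, and its part in the difference was not tested. Of the 24 absent ZNF143 peaks, 16 lay at sites where a CTCF peak was called at 24 h, 66.7% (44.7 to 84.4) against a background of 39.1%. That background was not split by CTCF at 0 h, and the locus was richer in such peaks. At 0 h 25 of its 29 ZNF143 peaks had CTCF, against 19370 of 34531 over the genome. The part of this mix in the difference was not tested. Another 6 lay at sites where CTCF was called at 0 h only, and 2 at sites without CTCF.

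**Figure D4:**
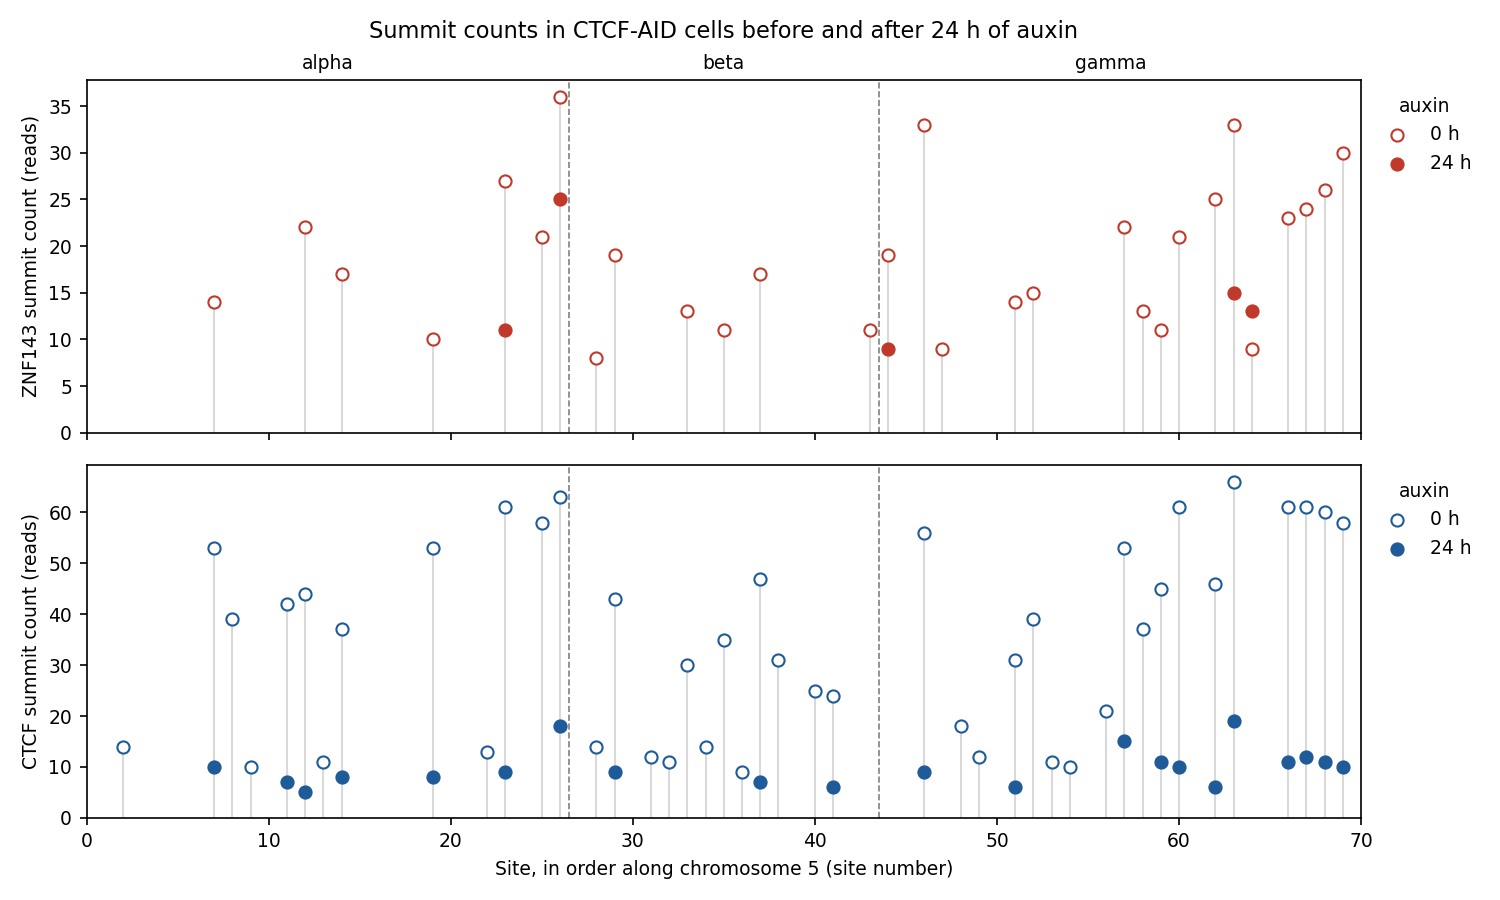
Summit counts (reads, vertical axis) of ZNF143 (top) and CTCF (bottom) at each site of CTCF-AID cells, at 0 h (open) and 24 h (filled) of auxin, each point 1 library. A site with an open point alone had no peak at 24 h, and site 64 is the only one with a higher ZNF143 count at 24 h, 13 against 9.

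CTCF peaks were found at 24 h at 21 of the 43 sites that had them at 0 h, 48.8% (33.3 to 64.5) against a background of 44.4%. By cluster the counts were 7 of 13 in alpha, 3 of 12 in beta and 11 of 18 in gamma, with overlapping intervals. The 21 were the stronger sites, with 0 h counts of 24 to 66 and a median of 53, against 9 to 58 and a median of 14 for the 22 absent. Counts at 24 h ran from 5 to 19. The highest were 19 reads (11.4 to 29.7) at site 63, 18 (10.7 to 28.4) at site 26 and 15 (8.40 to 24.7) at site 57, where 0 h had 66, 63 and 53.

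The CTCF libraries differed strongly in depth, with 3.88 background reads per kb at 24 h against 12.8 at 0 h. The ratio was 0.304 per kb and 0.166 per footprint, the length of the shortest peak of each list, and both were used to scale the 0 h counts. Of the 22 absent peaks, 10 had a scaled count below that needed for a call by either ratio, 5 lay between, and 7 (sites 8, 25, 35, 38, 40, 52 and 58) were at or above it by both. Of the 21 peaks found at both times, 7 had fewer reads at 24 h than the lower scaled value, 14 lay between the 2 scaled values and 0 lay above the higher. The share moved with the size of the lists. With both held to the same number of peaks over the genome, 13 of the 43 0 h CTCF peaks of the locus remained. Of these 13, 11 were found at 24 h, 84.6%, and the genome share under that cut is not given here.

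The pair of sites downstream of alpha differed in this comparison. Site 26 had CTCF at 63 reads (48.4 to 80.6) at 0 h and 18 (10.7 to 28.4) at 24 h, and ZNF143 at both times. Site 25, 982 bp away by the knockout CTCF summits, had 58 CTCF reads (44.0 to 75) and 21 ZNF143 reads (13 to 32.1) at 0 h and neither peak at 24 h. Its CTCF count of 58, scaled by depth, came to 9.61 to 17.6 reads, against 7 needed for a call at 24 h.

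The share of CTCF peaks found again was also read by whether ZNF143 was present at 0 h. CTCF was found at 24 h at 19 of 25 sites with ZNF143, 76.0% (54.9 to 90.6) against a background of 67.0%, and at 2 of 18 without, 11.1% (1.38 to 34.7) against 5.31%. The intervals of the 2 kinds of site do not overlap, and both hold their background shares. The 2 kinds also differed in strength, with median 0 h CTCF counts of 53 and 13.5, and the part of strength in the difference was not tested. The 2 without ZNF143 that kept CTCF were sites 11 and 41.

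Wild-type and CTCF-AID cells at 0 h have neither knockout nor auxin and differ by the tag, the line and the library. They gave the only measure of how far lists vary without the treatments. Of the 51 wild-type CTCF peaks 40 were found at 0 h, 78.4% (64.7 to 88.7), against 55.1%. The interval lies above the background share. The 11 absent were sites 1, 3, 6, 10, 15, 17, 20, 27, 30, 50 and 65, of which 7 were in alpha and 9 were present in the knockout. The 11 had wild-type counts of 6 to 21 with a median of 12, against a median of 28.5 for those found, so they were the weaker sites. They included the higher-coordinate members of 3 alpha pairs, sites 3, 15 and 20.

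Peaks with ZNF143 were found again at 0 h in 29 of 30 cases, 96.7% (82.8 to 99.9) against 89.5%, and those without in 11 of 21, 52.4% (29.8 to 74.3) against 20%. For ZNF143 itself 24 of 32 wild-type peaks were found at 0 h, 75% (56.6 to 88.5) against 73.1%. The 8 absent, sites 2, 3, 31, 38, 40, 41, 48 and 53, had wild-type counts of 5 to 9. Their share is larger in beta, where 3 of 7 were found, 42.9% (9.90 to 81.6), than in gamma, where 14 of 16 were, 87.5% (61.7 to 98.4), with overlapping intervals. The share of ZNF143 peaks found again was 75% between lines without auxin, against 73.1% over the genome. Between 0 h and 24 h of auxin it was 17.2%, against 43.2% over the genome. The 24 h list was also shorter, with 16392 peaks on chromosomes 1 to 22 and X against 34531 at 0 h. The difference between these shares was not tested.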

How the data were processed

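Per the submitters' processing notes, the authors used cutadapt 2.10, Bowtie2 2.3.5.1, SAMtools 1.12, MACS2 2.2.7.1 and deepTools with builds GRCh37 and hg19. Roles, settings and pooling are not given in the sources used here. The authors deposited narrow-peak lists, 1 per library, with a fold enrichment (a ratio), −log10 p, −log10 q and a score, which equals the whole part of 10 times −log10 q. Deposited −log10 q values start at 5.00 in the 2 knockout lists and at 3.00 to 3.02 elsewhere.

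Peaks shared at least 1 bp where they are called overlapping. Shares carry exact Clopper-Pearson 95% intervals. Over chromosomes 1 to 22 and X, whole summit counts solved from the deposited fold and −log10 p under a Poisson model matched −log10 p to 0.002 at 100% of peaks of every list. The method was chosen with the values known. RAD21 and CTCF summits were paired within 200 bp. Depth was background reads per kb.

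Sites named follow a rule: those with wild-type ZNF143, up to 6 per cluster with most lists, up to 5 per cluster and pair of lists found in 1 list only, and the alpha enhancer sites. Others, named to account for counts, were chosen after their values were seen. The members, lists and rule were chosen with earlier results of these data known. Sequence on hg19 was not used here, so motifs at sites were not searched and sites are not placed at genes. RefSeq promoter windows are GRCh38.p14.

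Intervals and Poisson tails came from scipy 1.17.1, tables from pandas 2.3.3 and numpy 2.4.6, and figures from matplotlib 3.10.9, all under Python 3.11.15. The overlap code was checked against an all-pairs count over the 648 wild-type CTCF peaks of chromosome 21 and gave 0 wrong calls, and the solving of summit counts was tested on simulated data.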

Additional observations from a re-analysis of the deposited data

How the results depend on the processing

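Over 16 results, 73 alternatives were run, of which 60 stayed within the spread used for the comparison (the exact 95% interval of a share, or 1.5 times a count) and 13 moved beyond it. One of the 73, the cut at 20 summit reads, was chosen after the data were seen. Under a 50% reciprocal overlap, 46.9% of wild-type ZNF143 peaks matched CTCF and 28.1% matched RAD21, the share of wild-type CTCF peaks at ZNF143 was 29.4%, and that of 0 h CTCF peaks found at 24 h was 4.65%. With lists of equal size, 84.6% of the 13 0 h CTCF peaks that remained were found at 24 h. Of the 39 wild-type CTCF peaks that remained, 92.3% were found at 0 h. With the stronger 50% of each list, the shares were 100% for wild-type ZNF143 at CTCF, 40.0% for wild-type CTCF at ZNF143, 83.3% for wild-type CTCF in the knockout, 31.6% for 0 h CTCF at 24 h, 60% for wild-type CTCF at 0 h and 91.7% for wild-type ZNF143 at 0 h, and the sites numbered 41. The last 2 settings change which peaks enter, and beyond that the cause was not tested. Genome shares under the reciprocal, equal-size and stronger 50% settings are not given here. The share of 0 h ZNF143 peaks found at 24 h ran from 12.5% to 25% over its alternatives. No paired analysis was possible because each group held 1 library, and for the same reason no replicate could be left out. The searches for CTCF and ZNF143 motifs at the sites were not run, as they need sequence of build hg19. Depth limits the CTCF list at 24 h most: at 3.88 background reads per kb, 10 of the 22 absent 0 h peaks had a scaled count below the one needed for a call.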
